A study of Mus musculus with 12 samples.

Results

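The genes described here are Nfe2l2, which encodes the transcription factor NRF2, Keap1, which encodes the adaptor that holds NRF2 in check, and 8 genes listed as direct NRF2 targets: Hmox1, Nqo1, Gclc, Gclm, Txnrd1, Srxn1, G6pdx and Me1. They were picked by symbol from a table of 51912 genes, in which all 10 were found, and all 10 were among the 13865 genes with enough reads to be tested. The table comes from RNA sequencing of fresh heart ventricle tissue of mice, in 12 libraries. LCHADD females, LCHADD males, WT females and WT males have 3 libraries each, and all 4 groups are untreated. In LCHADD the mitochondrial enzyme long-chain 3-hydroxyacyl-CoA dehydrogenase, which works in the last steps of long-chain fatty acid oxidation, is deficient, and the study asked how it alters expression in the ventricle of each sex. The labels used here do not give the age or strain of the mice or the allele that causes the deficiency. They also do not say whether the libraries of a group come from separate animals, so the p-values measure the spread between these libraries, which may be technical.

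NRF2 is a leucine zipper transcription factor that is made continuously and, in unstressed cells, bound by KEAP1 and handed to the proteasome. Oxidants and electrophiles modify cysteines of KEAP1, NRF2 then escapes breakdown, pairs with a small MAF protein and binds antioxidant response elements near its targets. The targets make glutathione, reduce thioredoxin and overoxidised peroxiredoxins, detoxify quinones and heme, and supply NADPH. Because the control is largely on the protein, the level of Nfe2l2 RNA need not follow the activity of NRF2, and the protein was not measured. In heart muscle this programme is known as a defence against oxidative damage.

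The promoters are shown first, because the binding site of NRF2 is what the targets are known to share. Windows of 250 bases before to 50 bases after the gene start were available for 8 of the 10 genes, in 11 windows (RefSeq, mouse build GRCm38.p6). Hmox1 and Gclc had none. The core of the antioxidant response element was searched as TGACNNNGC on both strands, and 6 of the 8 genes (75.0%) held it, against 14.0% of all 27025 genes with a window and 17.1% of the 10419 tested genes with one. A match is a string of letters and was not tested as a binding site. In the stretches below, read 5′ to 3′ along the strand of the gene, capitals mark the match. A match on the opposite strand shows as the reverse complement of the motif. Positions are counted from the gene start of the window shown, whose own base is 1.
Me1, chr9:86695912-86695979, minus strand, match from -6: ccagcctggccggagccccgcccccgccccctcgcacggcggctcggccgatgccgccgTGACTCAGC
Gclm, chr3:122245364-122245493, plus strand, match from -134: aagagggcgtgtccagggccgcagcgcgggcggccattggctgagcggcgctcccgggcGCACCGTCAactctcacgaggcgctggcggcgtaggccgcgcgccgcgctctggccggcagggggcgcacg
Txnrd1, chr10:82859055-82859184, plus strand, match from -92: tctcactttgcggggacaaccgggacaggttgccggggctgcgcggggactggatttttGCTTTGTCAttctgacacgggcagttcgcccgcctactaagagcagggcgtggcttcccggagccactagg
G6pdx, chrX:74428881-74428996, minus strand, match from -57: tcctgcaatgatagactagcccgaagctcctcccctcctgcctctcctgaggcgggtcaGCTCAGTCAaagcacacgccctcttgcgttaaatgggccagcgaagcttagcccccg
Nfe2l2, chr2:75704784-75704913, minus strand, match from -240: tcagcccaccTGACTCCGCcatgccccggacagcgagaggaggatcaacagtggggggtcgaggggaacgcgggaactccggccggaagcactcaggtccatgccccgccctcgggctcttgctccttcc

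Srxn1 held the core too, from position 29 on the opposite strand, and its window is shown for a related motif. The AP-1 motif, searched as TGANTCA on both strands, has the same opening letters as the antioxidant response element and can lie inside one, as it does in the Me1 match above. It was found in 2 of the 8 genes (25.0%), Me1 and Srxn1, against 8.97% of all genes with a window and 6.16% of the tested ones. In Srxn1 it occurred from -102 and again from -45, both marked in capitals. The match from -45 is followed by gc, as the AP-1 match of Me1 is. It has a G where the searched core has its first C, so the search did not count it as a core.
Srxn1, chr2:152105363-152105492, plus strand: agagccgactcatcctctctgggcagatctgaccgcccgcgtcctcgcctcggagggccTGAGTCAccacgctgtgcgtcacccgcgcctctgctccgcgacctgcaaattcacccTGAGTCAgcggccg
Neither motif was found in the windows of Nqo1 and Keap1, which says only that these letters are not in those windows. The element bound by C/EBP and ATF factors, searched as TGATGNAA on both strands, was found in 0 of the 8 genes. It was in 4.51% of all genes with a window and 2.76% of the tested ones, so it is rare in any case. On a list of ATF4 programme genes 3 of 14 (21.4%) held it. Of those 14 genes, 4 (28.6%) held the antioxidant response element core and 1 (7.14%) the AP-1 motif.

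Reads counted per library ran from 15.6 M to 23.2 M (M, mega). Values are normalised reads, which are the authors' counts divided by a size factor for each library. A gene passed where limma's Benjamini-Hochberg adjusted p over all 13865 genes was under 0.05, and changes are LCHADD minus WT on the log2(value + 1) scale with the standard error (SE) of the fit. The share of reads from the mitochondrial genome was 34.4 ± 2.70% in LCHADD and 29.3 ± 1.94% in WT (SD, n = 6). In bulk tissue, fewer cells of a type and less RNA per cell cannot be told apart.

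Across both sexes, all 8 listed targets rose in LCHADD ventricles, Keap1 fell, and Nfe2l2 itself did not pass. The rises ran from 1.40-fold for Nqo1 to 2.49-fold for Srxn1. Among all tested genes 40.8% passed, 20.3% higher and 20.6% lower, so passing is common in these hearts and 8 of 10 higher is to be read against that share. The median change of the 10 genes was 0.64, against -0.00 over all tested genes. In 5 genes (Nqo1, Gclm, Txnrd1, Srxn1 and Me1) every LCHADD library lay above every WT library, which held for 9.82% of all tested genes.

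**Figure D1:**
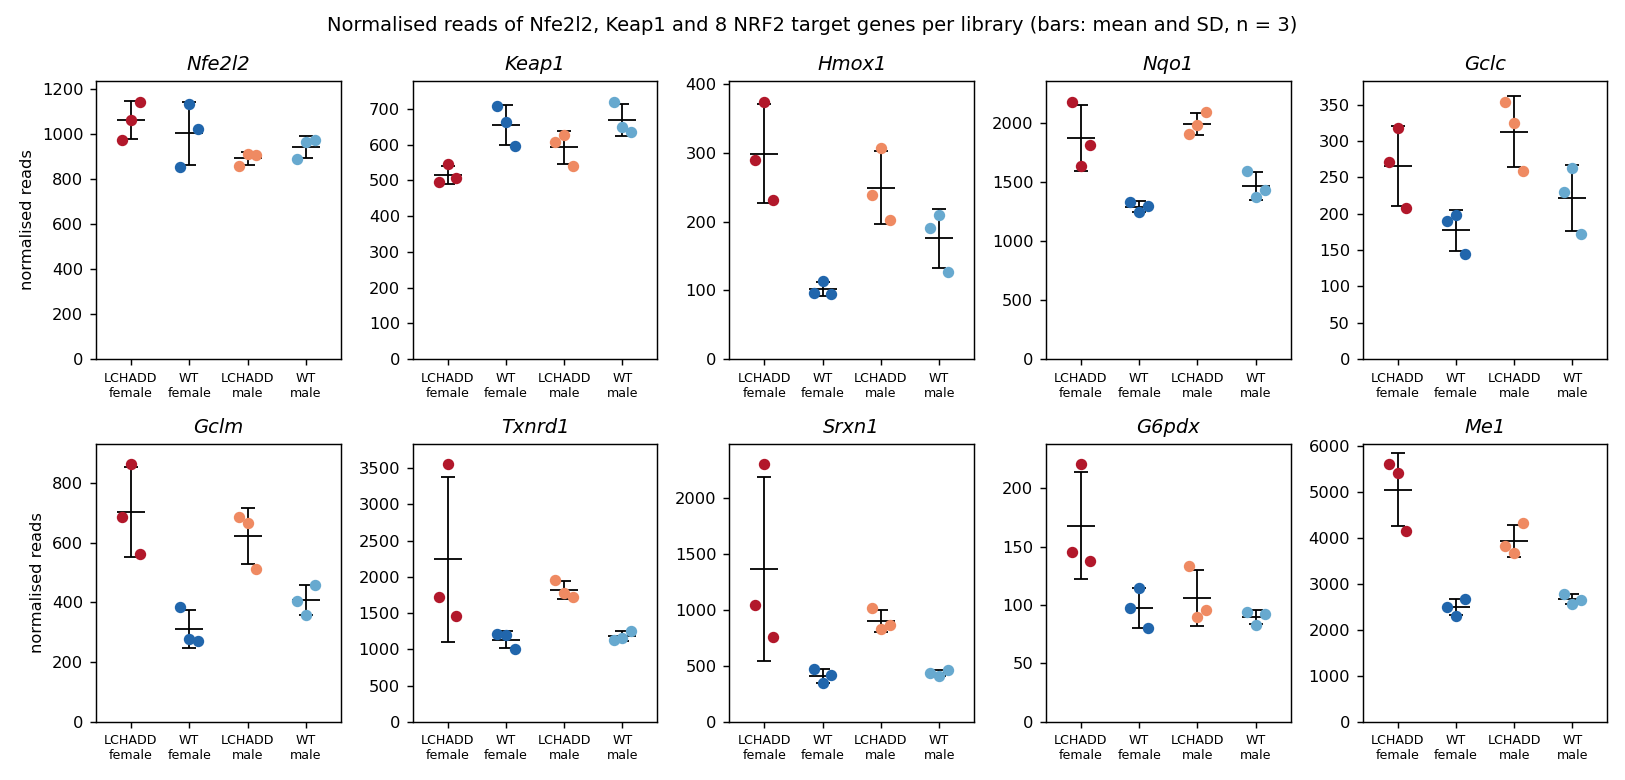
Normalised reads (vertical axis, from 0, a scale of its own in each panel) of the 10 genes in each library, with the mean and SD of each group (n = 3). Nfe2l2 overlaps between the genotypes, Keap1 sits lower in LCHADD, and the mean of each target is higher in LCHADD in both sexes. Hmox1, Gclc and G6pdx overlap between the genotypes in males. LCHADD female replicate 2 is far above the rest for Txnrd1 (3555) and Srxn1 (2298).

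The regulator and its inhibitor come first. Nfe2l2 (ENSMUSG00000015839) had 975, 1064 and 1144 normalised reads in LCHADD females and 859.8, 910.2 and 905 in LCHADD males, against 855, 1134 and 1022 in WT females and 887, 964 and 974 in WT males. The genotypes overlapped in both sexes. The change was 0.00 (SE 0.07, 95% confidence interval -0.14 to 0.15, limma adjusted p = 0.967).

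Keap1 (ENSMUSG00000003308) had 495, 545 and 506 normalised reads in LCHADD females and 608, 627 and 541 in LCHADD males, against 707, 663 and 597 in WT females and 720.1, 649.8 and 636 in WT males. Every LCHADD library lay below every WT library of its sex, and 4 of the 6 lay below all 6 WT libraries. The fall was -0.26 on the log2 scale, 0.835-fold (SE 0.07, limma adjusted p = 0.0054). In females it was -0.34 (SE 0.09, limma adjusted p = 0.010), while the males gave -0.18 (limma adjusted p = 0.224). The male libraries did not overlap either, which held, in either direction, for 38.9% of all tested genes in males. Whether the sexes differed was tested as an interaction, which gave -0.17 (SE 0.13, limma adjusted p = 0.714).

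Glutathione synthesis starts with glutamate-cysteine ligase, the rate-limiting enzyme, whose catalytic subunit is encoded by Gclc and whose modifier subunit is encoded by Gclm. Gclm (ENSMUSG00000028124) had 685, 862 and 562 normalised reads in LCHADD females and 685, 664 and 513 in LCHADD males, against 386, 277 and 269.6 in WT females and 405, 358 and 458 in WT males. The lowest LCHADD library was above the highest WT library. Gclm rose 1.85-fold, a log2 change of 0.89 (SE 0.12, limma adjusted p = 3.5e-05).

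Gclc (ENSMUSG00000032350) had 271, 317 and 208 normalised reads in LCHADD females and 354, 325 and 259 in LCHADD males, against 189, 198 and 145 in WT females and 230.1, 263 and 172 in WT males. The female groups did not overlap, while in males the lowest LCHADD library lay just under the highest WT library. Gclc rose 1.45-fold, a log2 change of 0.54 (SE 0.13, limma adjusted p = 0.0045). Its female change, 0.57 (limma adjusted p = 0.028), was 0.43 with limma adjusted p = 0.083 without LCHADD female replicate 2, and 0.43 with limma adjusted p = 0.128 without WT female replicate 3. Whether Gclm rose more than Gclc was not tested.

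Thioredoxin reductase 1, encoded by Txnrd1, reduces cytosolic thioredoxin with NADPH, and sulfiredoxin, encoded by Srxn1, repairs overoxidised peroxiredoxins. Srxn1 (ENSMUSG00000032802) had 1045, 2298 and 752 normalised reads in LCHADD females and 1014, 831 and 859 in LCHADD males, against 466, 345 and 421 in WT females and 432, 409 and 459 in WT males. No LCHADD library came near the WT range, and LCHADD female replicate 2 stood far above the other LCHADD libraries. Srxn1 rose 2.49-fold, a log2 change of 1.31 (SE 0.19, limma adjusted p = 6.7e-05), and was 1.09 without that library.

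Txnrd1 (ENSMUSG00000020250) had 1719, 3555 and 1459 normalised reads in LCHADD females and 1961, 1778 and 1725 in LCHADD males, against 1211, 1193 and 1000.5 in WT females and 1128, 1154 and 1259 in WT males. The groups did not overlap, and the same LCHADD female library stood apart. Txnrd1 rose 1.68-fold, a log2 change of 0.75 (SE 0.16, limma adjusted p = 0.0014). In females the change was 0.87 (SE 0.22, limma adjusted p = 0.0067) with LCHADD female replicate 2 and 0.49 (limma adjusted p = 7.6e-04) without it. In males it was 0.62, with limma adjusted p = 0.069 in the fit of all 12 libraries and 3.3e-05 once LCHADD female replicate 2 was left out.

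Nqo1 and Hmox1 encode detoxifying enzymes, a quinone reductase that uses NADPH or NADH and the inducible heme oxygenase, which breaks heme down to biliverdin, iron and carbon monoxide. Nqo1 (ENSMUSG00000003849) had 2183, 1636 and 1812 normalised reads in LCHADD females and 1908, 1988 and 2094 in LCHADD males, against 1331, 1245 and 1302 in WT females and 1598, 1371 and 1432 in WT males. The groups did not overlap, and here LCHADD female replicate 2 was the lowest of the LCHADD libraries. Nqo1 rose 1.40-fold, a log2 change of 0.49 (SE 0.07, limma adjusted p = 4.7e-05), by 0.53 in females (limma adjusted p = 6.7e-04) and 0.45 in males (limma adjusted p = 0.0057).

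Hmox1 (ENSMUSG00000005413) had 289.8, 375 and 231 normalised reads in LCHADD females and 239, 307 and 203 in LCHADD males, against 96.3, 114 and 95 in WT females and 190.2, 209.6 and 127 in WT males. The female groups lay far apart, while the lowest LCHADD male library fell inside the range of the WT males. Hmox1 rose 2.03-fold across the sexes, a log2 change of 1.02 (SE 0.15, limma adjusted p = 6.4e-05), and by 1.52 in females (SE 0.21, limma adjusted p = 5.9e-05). Males gave 0.51 (SE 0.21, limma adjusted p = 0.110). Of 7 macrophage markers, Adgre1 and Cd68 also rose in females, by 0.61 and 0.66. The others did not pass in females, with changes from -0.33 for Cd163 to 0.20 for C1qb. The part of these markers in the Hmox1 change was not tested. LCHADD females averaged 299 ± 72.1 normalised reads and LCHADD males 249 ± 52.9, with overlap, against 102 ± 10.4 in WT females and 176 ± 43.1 in WT males, with no overlap (SD, n = 3 each). The sexes did not overlap in WT for 18.4% of all tested genes. Neither the female minus male difference in LCHADD, 0.25 (SE 0.21, limma adjusted p = 0.534), nor that in WT, -0.76 (SE 0.21, limma adjusted p = 0.299), passed.

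NADPH, the reductant that glutathione reductase, thioredoxin reductase and NQO1 draw on, is made by glucose-6-phosphate dehydrogenase, the entry enzyme of the pentose phosphate pathway, and by cytosolic malic enzyme. Me1 (ENSMUSG00000032418), which encodes the malic enzyme, had 5607, 5417 and 4150.4 normalised reads in LCHADD females and 3826, 3672 and 4330.1 in LCHADD males, against 2508, 2309.8 and 2663 in WT females and 2782, 2572 and 2644 in WT males. The lowest LCHADD library was well above the highest WT library. Me1 rose 1.72-fold, a log2 change of 0.79 (SE 0.07), with the smallest adjusted p of the 10 genes (limma, 1.0e-06). The rise was 1.01 in females (limma adjusted p = 4.2e-06) and 0.56 in males (limma adjusted p = 0.0020).

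G6pdx (ENSMUSG00000031400), the X-linked gene of glucose-6-phosphate dehydrogenase, had 145, 220.4 and 137 normalised reads in LCHADD females and 133, 89.3 and 95.6 in LCHADD males, against 97.0, 114 and 80.4 in WT females and 93.6, 82.6 and 92.5 in WT males. The female groups did not overlap and the male groups did, with 1 LCHADD male library high and the others near WT. G6pdx rose 1.41-fold, a log2 change of 0.49 (SE 0.14, limma adjusted p = 0.013), which was 0.32 (limma adjusted p = 0.062) without LCHADD female replicate 2 and WT female replicate 3. It changed by 0.76 in females (SE 0.20, limma adjusted p = 0.0095), while males gave 0.22 (SE 0.20, limma adjusted p = 0.507). It had the fewest reads of the 10 genes, and the mouse genome holds a close copy, G6pd2, so its values are uncertain where the counting, which is not described, could split reads between them.

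Taken by sex, 8 of the 10 genes rose and 1 fell in females, while in males 4 rose (Srxn1, Gclm, Me1 and Nqo1) and none fell. Among all tested genes 33.8% passed in females (16.7% higher and 17.2% lower) and 15.5% in males (7.71% higher and 7.77% lower). The LCHADD and WT libraries did not overlap in 9 of the 10 genes in females, 8 of them higher, and in 6 of the 10 in males, 5 of them higher. That held, in either direction, for 44.5% of all tested genes in females and 38.9% in males. With nuclear-gene scaling the female calls over all genes were 2884 higher and 1953 lower, against 2314 higher and 2378 lower with the authors' scaling. The median change of the 10 genes was 0.82 in females and 0.51 in males, against -0.00 and 0.00 over all genes. The 4 genes that rose in males also rose in females, which 6.72% of all tested genes did. The male count depended on the libraries in the fit: it was 7, with Hmox1, Gclc and Txnrd1 added, with the male libraries alone or without LCHADD female replicate 2, and 2 without LCHADD male replicate 1, WT male replicate 1 or WT male replicate 2. Over all genes the male rises were 1631 and 1609 in the settings with 7, against 1069 in the main fit. In those with 2 they were 665, 706 and 766, in the order given. The 4 groups share 1 estimate of each gene's spread, so a female library bears on the male p-values. The female count of rises was 7 without LCHADD female replicate 2, where Gclc did not pass, 6 with the female libraries alone, and 6 without both LCHADD female replicate 2 and WT female replicate 3. Over all genes the female rises in the same settings were 2046, 1689 and 1788, against 2314.

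**Figure D2:**
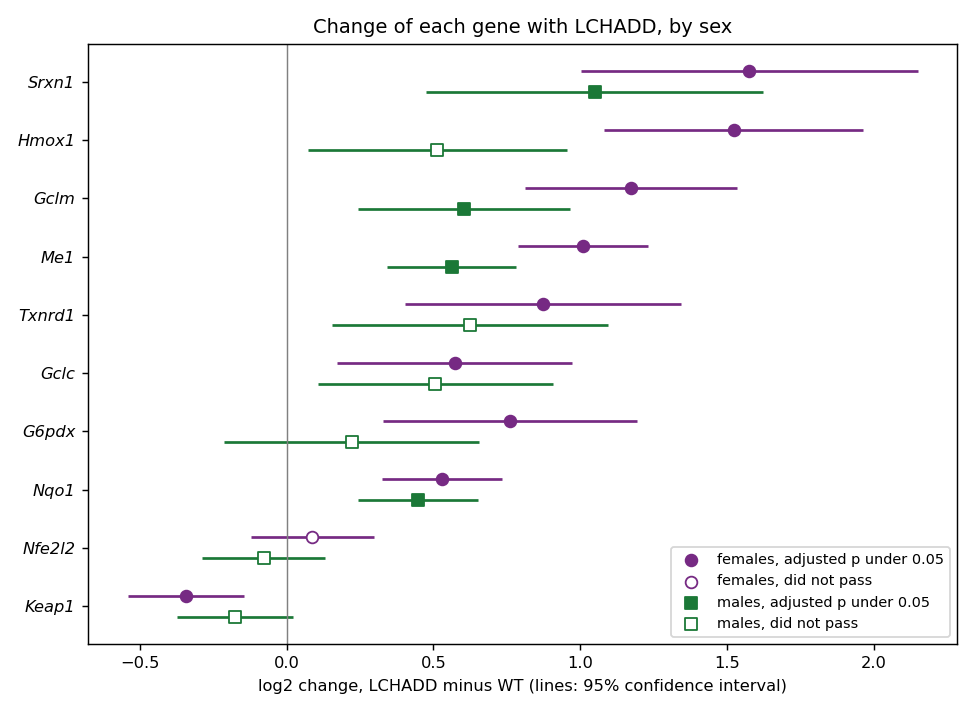
Change of each gene, LCHADD minus WT, on the log2(value + 1) scale (horizontal axis), in females (circles) and males (squares), with the 95% confidence interval of the fit; filled symbols passed at a limma adjusted p under 0.05. The female change is the larger for all 8 targets (6 without LCHADD female replicate 2, not drawn), with the widest gap for Hmox1 (1.52 in females and 0.51 in males). The intervals of the sexes overlap for every gene except Hmox1 and Me1.

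The female change was larger than the male change for each of the 8 targets, and for 6 of them without LCHADD female replicate 2. Without that library the female minus male difference of the changes was -0.14 for Txnrd1 and -0.07 for Gclc, and 0.07 for Srxn1, against 0.25, 0.07 and 0.53 with it. The difference also fell below 0 for Gclc without LCHADD male replicate 3, WT female replicate 3 or WT male replicate 2, and for Nqo1 without LCHADD female replicate 1. A larger female change was also common among other genes: of the 2808 genes that passed higher across both sexes, 2219 (79.0%) showed it, and 1913 (68.1%) without that library. Tested as an interaction of genotype and sex, 0 of the 10 genes passed with limma, against 0.00721% of all tested genes. At an unadjusted p under 0.05 there were 3, Hmox1 with a difference of 1.01 (SE 0.29), Me1 with 0.45 (SE 0.15) and Gclm with 0.57 (SE 0.24). Of all 13865 tested genes 1363 reached that level in the interaction. EdgeR also passed 0 of the 10, and DESeq2 0 of the 7 to which it gave an adjusted p, with none for Hmox1, Gclc and G6pdx. With array quality weights, which give less weight to libraries that stand apart, Hmox1 (0.93, limma adjusted p = 0.023) and Me1 (0.61, limma adjusted p = 0.0037) passed. Within a genotype, females were compared with males, a comparison added after the values were seen, and 0 of the 10 genes passed with limma in either. Of all tested genes 5.77% passed in LCHADD and 0.245% in WT. At an unadjusted p under 0.05 there were 3 of the 10 in LCHADD and 2 in WT. Of all 13865 tested genes, 2935 did so in LCHADD and 1019 in WT.

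Among the LCHADD females the libraries followed an order over most of the genes. Replicate 2 was the highest of the 3 for 7 of the 10 genes and the lowest for 1, Nqo1, and replicate 3 was the lowest for 7. The median deviation from the group mean was 0.30 for replicate 2, -0.04 for replicate 1 and -0.29 for replicate 3 on the log2 scale. In the LCHADD males the same medians spanned 0.07 to -0.10. LCHADD female replicate 2 also had the lowest summed level of 7 ventricular cardiomyocyte markers, 551900 normalised reads, and replicate 3 the highest share of mitochondrially encoded reads, 37.9%. The part of either in the members' values was not tested.

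**Figure D3:**
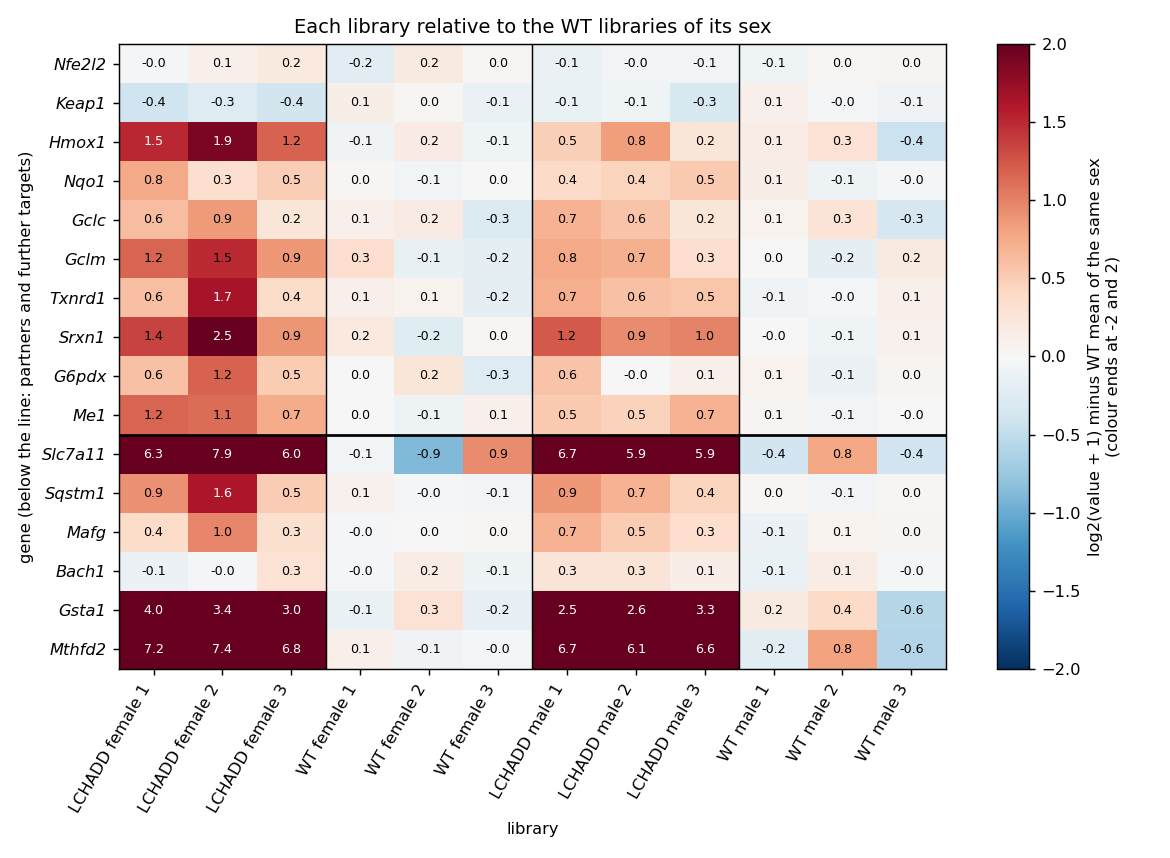
Each library's log2(value + 1) minus the mean of the WT libraries of its sex (colour and number), for the 10 genes and, below the line, 6 other genes, with libraries in columns by group. LCHADD columns are above WT for the 8 targets almost throughout, LCHADD female replicate 2 is darkest for Srxn1 (2.5) and Txnrd1 (1.7), and Slc7a11, Gsta1 and Mthfd2 lie beyond the end of the colour scale in every LCHADD library.

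Per kilobase of merged exons (GENCODE vM21), the genes can be set against each other. In LCHADD, Nqo1 was at 1247 ± 127 normalised reads per kb and Me1 at 1169 ± 213, followed by Srxn1 at 402 ± 206, Txnrd1 at 287 ± 108 and Nfe2l2 at 257 ± 28.6 (SD, n = 6). Hmox1 was at 156 ± 35.8, Keap1 at 118 ± 11.4, Gclm at 105 ± 19.2, Gclc at 76.8 ± 14.1 and G6pdx at 44.5 ± 15.2. In WT, Nqo1 was at 888 ± 79.8 and Me1 at 670 ± 41.9, then came Nfe2l2 at 256 ± 26.3, Txnrd1 at 163 ± 12.6, Srxn1 at 150 ± 15.5 and Keap1 at 141 ± 9.77. Hmox1 was at 79.2 ± 28.2, Gclm at 57.0 ± 11.8, Gclc at 53.0 ± 11.1 and G6pdx at 30.3 ± 3.95. Nqo1 and Me1 headed both orders, and their ranges over libraries overlapped in LCHADD but not in WT. Srxn1 stood above Nfe2l2 in the LCHADD order and below it in the WT order, with overlapping ranges in LCHADD. Txnrd1 stood above Nfe2l2 in LCHADD only with LCHADD female replicate 2, and was at 244 ± 25.4 against 253 ± 29.4 for Nfe2l2 without it (SD, n = 5). Gclm and Gclc overlapped in both genotypes.

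The wider pathway was read from 7 lists. Their counts are to be read against all tested genes, of which 20.3% passed higher and 20.6% lower across both sexes. On the list of regulators and partners, 5 of the 13 tested genes rose and none fell across both sexes, with a median change of 0.12. Without LCHADD female replicate 2, 4 rose and 1 fell, without WT female replicate 3 as well 5 rose and 1 fell, with edgeR 4 rose, and with nuclear-gene scaling 6 rose. Sqstm1, whose product p62 binds KEAP1 and is itself an NRF2 target, had 10011, 16264 and 7539 normalised reads in LCHADD females and 10438, 9294 and 7816 in LCHADD males, against 5672, 5199 and 5117 in WT females and 5867, 5546 and 5825 in WT males. No libraries overlapped, and the change was 0.84 (SE 0.13, limma adjusted p = 1.6e-04). Mafg, a small MAF partner of NRF2, rose by 0.53 to 1083 ± 208 normalised reads in LCHADD, against 739 ± 33.4 in WT (SD, n = 6, limma adjusted p = 6.1e-04). Dpp3, whose product competes for KEAP1, rose by 0.38 (limma adjusted p = 3.9e-04) and Gsk3b, a kinase that marks NRF2 for breakdown, by 0.31 (limma adjusted p = 0.012). The fifth was the related factor Nfe2l1, at 0.18 (limma adjusted p = 0.048). Bach1, a repressor at the same elements and best known at Hmox1, averaged 630 ± 64.7 in LCHADD and 574 ± 52.0 in WT (change 0.13, limma adjusted p = 0.202). Cul3, the scaffold of the ligase that KEAP1 serves, gave -0.09 (limma adjusted p = 0.159) and Park7 0.12 (limma adjusted p = 0.084). Nfe2 and Nfe2l3 had too few reads to be tested.

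On the glutathione list, 7 of 13 genes rose and none fell, with a median of 0.30. Slc7a11, the cystine transporter that brings in the cysteine for glutathione and a target of both NRF2 and ATF4, had 141, 446 and 115 normalised reads in LCHADD females and 137, 79.0 and 78.5 in LCHADD males, against 0.783, 0 and 2.57 in WT females and 0, 1.23 and 0 in WT males. It was close to silent in WT, with 966 reads over the 6 LCHADD libraries against 5 over the 6 WT libraries, a ratio of 227 once the pooled reads are scaled by the pooled size factors (exact 95% counting interval 96.8 to 699). LCHADD female replicate 2 gave 459 of the 966 reads, and without it the ratio was 146 (62.0 to 451). Chac1, whose product degrades glutathione and which ATF4 is known to drive, rose by 2.67 (limma adjusted p = 5.2e-08). Gss, the second enzyme of glutathione synthesis, rose by 0.81 to 343 ± 61.1 in LCHADD, against 193 ± 18.1 in WT (limma adjusted p = 3.3e-05). Gpx4, the peroxidase of lipid hydroperoxides, rose by 0.52 (limma adjusted p = 6.2e-06). Gpx1 gave 0.14 (limma adjusted p = 0.113) and Glrx2 0.08 (limma adjusted p = 0.418).

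On the thioredoxin and peroxiredoxin list, 8 of 14 genes rose and 1, Prdx5, fell (-0.20), with a median of 0.23. Prdx6 rose by 0.56 (limma adjusted p = 9.8e-07), Prdx1, a known NRF2 target and substrate of sulfiredoxin, by 0.44 (limma adjusted p = 1.4e-05), and Txn1, the cytosolic thioredoxin, by 0.43 (limma adjusted p = 2.3e-04). Sesn2, a stress-induced sestrin, rose by 1.49 (limma adjusted p = 7.3e-05). The mitochondrial thioredoxin Txn2 gave -0.04 (limma adjusted p = 0.538) and Prdx2 -0.06 (limma adjusted p = 0.356).

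On the NADPH list, which holds neither G6pdx nor Me1, 6 of 14 genes rose and 3 fell, with a median of 0.17. Pgd, the next NADPH-producing step of the pentose phosphate pathway and a known NRF2 target, rose by 0.60 to 626 ± 90.8 in LCHADD, against 411 ± 19.3 in WT (limma adjusted p = 4.6e-05). Aldh1l2, a mitochondrial folate enzyme that makes NADPH, rose by 2.73 (limma adjusted p = 1.3e-09). The mitochondrial enzymes Me3 and Idh2 fell, by 0.63 (limma adjusted p = 7.9e-07) and by 0.52 (limma adjusted p = 1.0e-06) on the log2 scale. Taldo1 gave 0.16 (limma adjusted p = 0.110) and Idh1 0.01 (limma adjusted p = 0.967).

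On the list of conjugating and detoxifying enzymes, where NRF2 is known mainly from the liver, 6 of 18 tested genes rose and 4 fell, with a median of 0.02. Gsta2 rose by 4.52 (limma adjusted p = 2.2e-09) and Gsta1 by 3.14 (limma adjusted p = 2.9e-08). These glutathione transferase genes are close copies, so the split of reads between them is uncertain. Gsta4, which conjugates the lipid peroxidation product 4-hydroxynonenal, rose by 0.62 (limma adjusted p = 2.8e-06), while Mgst3 fell by 0.86 (limma adjusted p = 2.7e-07). Gstm1, abundant in these hearts and a known NRF2 target in mouse liver, averaged 3688 ± 449 in LCHADD and 3932 ± 200 in WT (change -0.10, limma adjusted p = 0.263), and Gstm2 gave 0.18 (limma adjusted p = 0.094). Ugt1a6a, Ugt1a7c, Aldh3a1 and Abcc2 had too few reads to be tested.

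On the heme and iron list, 5 of 8 tested genes rose and 1 fell, with a median of 0.35, and Abcb6 was not tested. Ftl1 and Fth1, the ferritin chains that store iron, rose by 0.87 (limma adjusted p = 5.3e-07) and by 0.39 (limma adjusted p = 1.6e-05). Blvra, a biliverdin reductase, rose by 0.40 (limma adjusted p = 8.5e-04), and Hmox2, the constitutive heme oxygenase, by 0.31 (limma adjusted p = 9.6e-04). The iron exporter Slc40a1 gave 0.19 (limma adjusted p = 0.284) and Blvrb 0.13 (limma adjusted p = 0.353). Markers of red blood cells, the richest source of heme in blood, summed to 1913 to 4486 normalised reads in LCHADD libraries and 6969 to 12553 in WT libraries, and all 5 passed lower.

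The ATF4 list was set beside the members because ATF4 and NRF2 are known to share targets such as Slc7a11. All 14 of its genes rose, with a median of 2.57, the largest median of the 7 lists. Mthfd2, a mitochondrial folate enzyme, rose by 6.81 to 4213 ± 1327 normalised reads in LCHADD, against 36.5 ± 13.0 in WT (SD, n = 6, limma adjusted p = 3.4e-12). Phgdh, the first enzyme of serine synthesis, rose by 5.80 (limma adjusted p = 3.8e-13), Asns by 5.98 (limma adjusted p = 1.7e-11) and the transcription factor Atf5 by 3.33 (limma adjusted p = 1.5e-10).

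**Figure D4:**
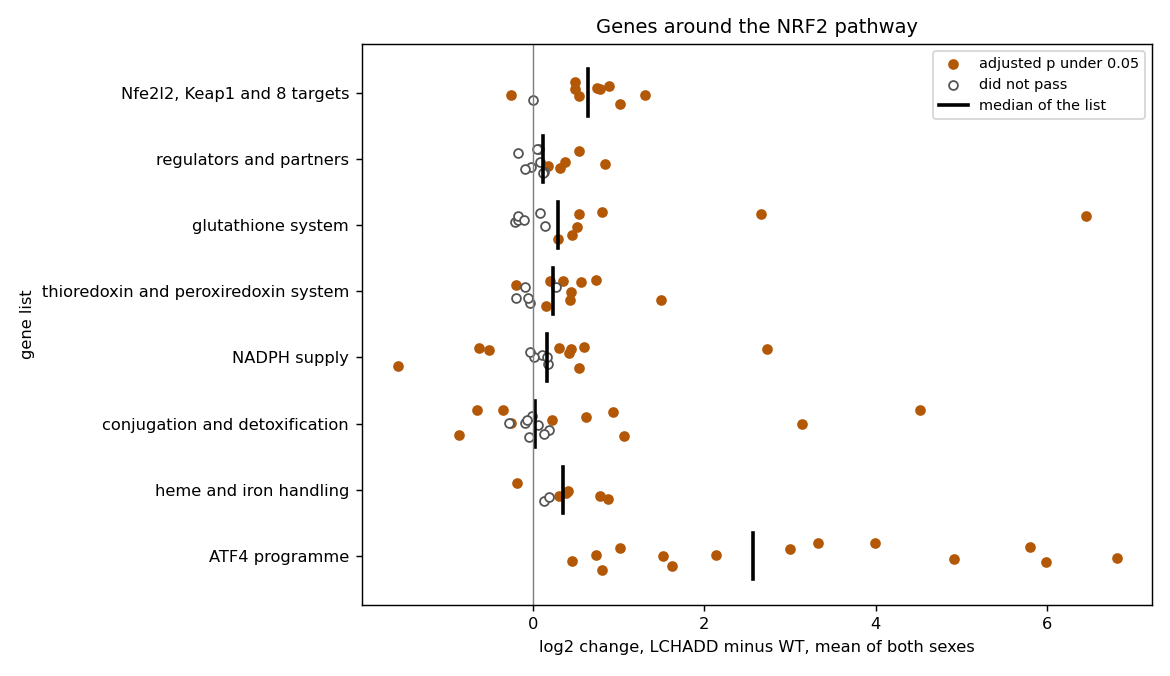
Change of each tested gene, LCHADD minus WT, mean of both sexes, on the log2(value + 1) scale (horizontal axis), for the 10 genes and the 7 lists; filled points passed at a limma adjusted p under 0.05 and the black bar is the median of the list. The median is 0.64 for the 10 genes, between 0.02 and 0.35 for 6 lists and 2.57 for the ATF4 list.

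Marker genes of the cells in the ventricle moved as well. Of 7 ventricular cardiomyocyte markers 6 passed lower, with sums of 551900 to 957080 normalised reads in LCHADD and 1010730 to 1094460 in WT. All 6 fibroblast markers passed lower (6498 to 8503 in LCHADD, 9850 to 11392 in WT), as did 4 of 5 endothelial markers (7404 to 8826 in LCHADD, 9816 to 10725 in WT) and 4 of 5 mural markers (6846 to 11306 in LCHADD, 9594 to 11553 in WT). Macrophages are also known to express Hmox1 strongly. Their 7 markers had overlapping sums (1802 to 2409 in LCHADD, 1832 to 2496 in WT), and across both sexes the nearest to passing was Adgre1, at 0.38 (limma adjusted p = 0.053). In females 2 of the 7 rose. Adgre1 ran from 144 to 213 in LCHADD females and from 97.1 to 140.1 in WT females (0.61, limma adjusted p = 0.033), and Cd68 from 83.5 to 102 in LCHADD females and from 53.8 to 67.6 in WT females (0.66, limma adjusted p = 0.023). The other 5 overlapped in females, and in males none of the 7 passed, with Adgre1 at 0.14 (limma adjusted p = 0.705) and Cd68 at -0.20 (limma adjusted p = 0.567). Neutrophil markers summed to 22.9 to 69.4 in LCHADD and 32.1 to 59.5 in WT, and lymphoid markers to 13.7 to 30.2 in LCHADD and 27.9 to 58.7 in WT. Atrial markers summed to 232 to 368 in LCHADD and 179 to 275 in WT. Of the 3 tested, only Bmp10 passed, with a mean of 71.1 in LCHADD and 3.22 in WT. Nppa gave 0.05 (limma adjusted p = 0.860) and Myl4 -0.12 (limma adjusted p = 0.682). Adipocyte markers reached at most 12.7 in LCHADD and 14.5 in WT, skeletal muscle markers 26.4 in LCHADD and 39.1 in WT, with Myh4 at 0, and nerve markers 54.9 in LCHADD and 71.0 in WT, with Th at 0. The part of these shifts in the members' changes was not tested.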

How the data were processed

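For 12 mouse ventricle libraries the deposited table gives each gene's signal, the authors' read count divided by a size factor, as read from the values: in every library 100% of values were whole multiples of 1 step within 0.01. Per the submitters' processing notes, bcl2fastq, DESeq2 and build GRCm39 were used, without versions. Aligner, counter, annotation and strand setting were not given in the sources used here. Per the labels' protocols, total RNA was extracted from fresh tissue with a column kit for fibrous tissue. Symbols came from GENCODE vM21, which matched 51633 of 51912 IDs.

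Genes with a value of at least 10 in at least 3 libraries were kept (13865 of 25687 with any read). Log2 of the value plus 1 was fitted in limma 3.58.1 (R 4.3.3, lmFit and eBayes with a trend) with 4 group means. The groups share 1 estimate of the spread per gene. LCHADD was compared with WT in the mean of both sexes, in females and in males, and the interaction of genotype and sex was tested. Adjusted p-values are limma's (Benjamini-Hochberg over all tested genes), and a gene passed under 0.05. The method was tested on simulated counts in which no library stood apart, so that test does not cover a library such as LCHADD female replicate 2. The 10 genes and the lists were chosen with earlier results of these data known. On each list, the genes named were the 4 passing genes of smallest adjusted p and, of those that did not pass, the 2 most abundant, with Slc7a11, Bach1, Mafg and Sqstm1 in any case. Nfe2l1, Prdx5, Bmp10, Nppa, Myl4, Adgre1 and Cd68 were named after their values were seen. The interval for Slc7a11 is exact (Clopper-Pearson), covers counting error only, and rests on reads recovered from the steps.

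Replicate numbers did not pair libraries: same-numbered libraries' deviations correlated by -0.106 to 0.0491 in 18 pairs. Alternatives were other added values and filters, TMM and nuclear-gene scaling, edgeR 4.0.16 and DESeq2 1.42.0 on the recovered reads, the compared groups alone, array quality weights, a replicate block, and libraries left out. Leaving out LCHADD female replicate 2 for Slc7a11, the levels per kb and the larger female change was chosen after seeing the data. LCHADD female replicate 2 and WT female replicate 3 were left out together as libraries that stood apart, a choice that also rests on these data.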

Additional observations from a re-analysis of the deposited data

How the results depend on the processing

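Over 940 repeats of the changes of the 10 genes under the alternatives, 886 kept their direction and side of the threshold, 16 no longer passed, 19 newly passed and 19 changed sign. Across both sexes, 9 of the 10 genes passed in every alternative except the one without both LCHADD female replicate 2 and WT female replicate 3, where 8 did. Over all genes, edgeR passed 2828 higher and 2881 lower across both sexes and nuclear-gene scaling 3317 and 2457, against 2808 and 2853. On the 6 pathway lists besides regulators, the count of rises across both sexes moved by at most 1 with edgeR, nuclear-gene scaling or both of those libraries or LCHADD female replicate 2 alone left out. The replicate block, whose numbers did not pair the libraries, passed 9 genes in females and 6 in males, with Hmox1 (limma adjusted p = 0.020) and Gclc (limma adjusted p = 0.0084) added.

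In males the count of genes passed was 2146, and it was 3601 with array quality weights, 3342 with the male libraries alone and 3305 without both of those libraries. Leaving out 1 library gave 1315 (without LCHADD male replicate 1) to 3287 (without LCHADD female replicate 2), with 1328 without WT male replicate 1 and 1317 without WT male replicate 3. The male count of the 10 genes was 4, and 7 in each of those 3 settings, with a range of 2 to 7 when 1 library was left out. Each gene has 1 estimate of the spread, shared by the groups in a fit. Leaving out LCHADD female replicate 2 left the male changes as they were (Hmox1 0.51, Gclc 0.51, Txnrd1 0.62), and only their p-values moved. What set that library apart, and the cause of the other moves, was not tested.

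The interaction passed 1 gene, Acta1, and it passed 2 with a filter at 50, 2 with edgeR, 101 with DESeq2, 749 with array quality weights, 12 without both libraries and 0 to 187 with 1 library left out. The counts were 187 without LCHADD female replicate 3, 69 without LCHADD male replicate 3, 8 without LCHADD female replicate 2, 2 without WT male replicate 1, and 0 without LCHADD female replicate 1, WT female replicate 2 or 3, or WT male replicate 2. Of the 10 genes it passed 2 with array quality weights and 0 to 1 with 1 library left out, which was Me1 (0.58, limma adjusted p = 0.020, without LCHADD female replicate 3).

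The changes of sign were all in values that did not pass. Nfe2l2 across both sexes was -0.0033 with edgeR, -0.0497 with array quality weights and -0.0510 to 0.0510 with 1 library left out, and in females -0.0147 and -0.0237 to 0.18. The interaction of Gclc was -0.0196 with array quality weights, -0.21 without both libraries and -0.0720 to 0.24 with 1 left out. That of Txnrd1 was -0.0467, -0.23 and -0.14 to 0.50 in the same settings, and that of Nqo1 -0.0327 to 0.18 with 1 left out.

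In females Gclc did not pass in 5 alternatives (highest limma adjusted p = 0.274), nor did Txnrd1 with the female libraries alone (0.055), Keap1 without WT female replicate 1 (0.054) or G6pdx without both libraries (0.142). In males Gclm did not pass in 4 alternatives (0.074 to 0.109) and Srxn1 in 3 (0.052 to 0.071), each with 1 male library left out. With 3 libraries a group, precision is limited: G6pdx rests on 268 to 490 reads a group.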
